A study of Mus musculus with 24 samples.

Results

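The genes described here encode 6 liver methyltransferases that act on small molecules, Gamt, Nnmt, Inmt, Hnmt, Tpmt and As3mt, together with Gatm, an amidinotransferase that makes the substrate of Gamt. They were chosen by mouse gene symbol, and each symbol named 1 Ensembl gene row, so the set holds 7 of the 56205 gene rows of the table. All 7 passed the low-count filter and were among the 14109 genes tested. The libraries were poly(A) RNA of whole liver from C57BL/6J mice, 12 from animals on the control diet and 12 from animals on the methionine-choline deficient (MCD) diet, each for 20 weeks. No genetic change, drug or other agent is listed for either group. The series description states equal numbers of males and females per diet, but no single library carries a sex, and the age at the start of this diet is not given in the sources used here. The labels do not tie a library to a named animal, so the p-values measure the spread between these libraries. The labels and the study's methods name the diet methionine-choline deficient, the methods with a high fat content, while the study's results name a choline-deficient, amino acid-defined diet (CDAHFD). The groups are named here as in the labels, and the methionine content of the diet was not checked.

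S-adenosylmethionine (SAM) is made from methionine and is the methyl donor of these enzymes, which leave S-adenosylhomocysteine (SAH) after each transfer. Gatm joins arginine and glycine to guanidinoacetate, chiefly in the kidney, and Gamt methylates guanidinoacetate to creatine, chiefly in the liver. Nnmt methylates nicotinamide, Inmt methylates indoleamines such as tryptamine, Hnmt inactivates histamine, Tpmt methylates thiopurine drugs, and As3mt methylates inorganic arsenic.

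Total counts were 16793207 to 24915175 in control libraries and 16388650 to 24577848 in MCD libraries, and the trimmed-mean (TMM) scaling factors were 0.642 to 0.973 and 1.07 to 1.26, without overlap. Genes detected, 17469 to 18799 in control and 18880 to 19830 in MCD, did not overlap either, and the mitochondrial share of counts had a median of 8.95% in control and 7.0% in MCD. The part of detected genes and mitochondrial share in the results was not tested. Abundance is given below as CPM, reads per 1e6 reads of the TMM-scaled library size. A gene was past the threshold in edgeR's quasi-likelihood test when its log2 fold change exceeded 0.5 in size and its false discovery rate (FDR, Benjamini-Hochberg over all genes tested) was at most 0.01. The median log2 fold change of all genes tested was -0.10 with TMM factors, -0.04 with relative log expression factors, 0.05 with upper-quartile factors and 0.27 with total counts alone, so calls near a limit depend on the scaling. A pair of libraries stood apart: control replicate 12 had the lowest TMM factor and the fewest detected genes, and MCD replicate 4 held counts of adipocyte genes (Plin1 266 and Adipoq 239, against at most 2 and 3 in any other library). Hepatocyte marker genes together held 71380 to 170700 CPM in control and 53910 to 79260 in MCD, macrophage markers 112 to 321 and 679 to 1387, mesenchymal markers 151 to 425 and 617 to 1072, endothelial markers 170.2 to 249.7 and 97.5 to 155, cholangiocyte markers 3.71 to 14.8 and 40.0 to 95.6, and lymphocyte markers 2.36 to 7.28 and 8.09 to 16.03. Of these markers 2 of 6 hepatocyte genes were past the threshold as lower, as were 4 of 5 endothelial genes, while 5 of 7 macrophage, 6 of 7 mesenchymal, 4 of 4 cholangiocyte and 3 of 5 lymphocyte genes were past it as higher and 2 macrophage and 1 mesenchymal gene as lower. In these bulk samples fewer cells of a type and less RNA per cell cannot be told apart, and the part of cell make-up in the results that follow was not tested.

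RefSeq promoter windows, 250 bases before the start and 50 from it, were found for 6 of the 7 genes in the build GRCm38.p6. Those of Gamt, Gatm and Inmt are printed because these are the creatine pair, whose ratio changed, and the gene with the largest fold change of the 7. Gamt lies at chr10:80260963-80261262, Gatm at chr2:122611228-122611527 and Inmt at chr6:55174941-55175240, all on the minus strand and shown 5′ to 3′ along the gene. Capitals mark matches to the GC box GGGCGG in Gamt, the CCAAT box CCAAT in Gatm and the TATA box TATAAA in Inmt, each searched on both strands.
Gamt: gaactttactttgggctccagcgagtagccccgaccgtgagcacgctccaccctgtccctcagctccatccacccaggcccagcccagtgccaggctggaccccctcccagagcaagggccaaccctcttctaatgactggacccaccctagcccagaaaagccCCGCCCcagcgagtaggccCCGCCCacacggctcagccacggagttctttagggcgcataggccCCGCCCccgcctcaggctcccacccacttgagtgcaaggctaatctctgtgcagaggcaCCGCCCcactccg
Gatm: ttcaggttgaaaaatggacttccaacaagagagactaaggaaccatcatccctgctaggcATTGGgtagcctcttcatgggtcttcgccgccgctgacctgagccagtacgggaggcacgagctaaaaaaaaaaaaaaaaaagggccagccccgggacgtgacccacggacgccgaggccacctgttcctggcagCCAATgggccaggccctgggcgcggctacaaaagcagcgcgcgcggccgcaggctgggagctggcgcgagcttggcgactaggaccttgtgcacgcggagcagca
Inmt: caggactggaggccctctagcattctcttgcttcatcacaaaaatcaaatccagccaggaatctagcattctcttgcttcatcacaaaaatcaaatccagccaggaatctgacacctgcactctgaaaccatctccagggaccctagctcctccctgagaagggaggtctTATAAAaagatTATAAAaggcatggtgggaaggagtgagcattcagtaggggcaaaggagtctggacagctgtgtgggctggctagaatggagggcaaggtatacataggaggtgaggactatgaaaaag

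The 3 windows differ in composition. Gamt held 66.0% G or C with 14 CpG and 4 GC-box matches, Gatm 60.7% with 22 CpG and CCAAT matches at -190 and -55, and Inmt 47.7% with 0 CpG and TATAAA matches at -80 and -69. Among 32851 RefSeq promoters the median was 52.7% G or C with 7 CpG. A GC box was present in 35.7% of them, CCAAT in 37.4% and TATAAA in 13.6%. The letters TGATGNAA, a form of the ATF4 response element, are in 3.97% of all promoters, TGACNNNGC, a form of the antioxidant response element, in 12.4%, and the E-box CACGTG in 7.15%, and these 3 were not matched in the windows of the 6 genes.

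On the MCD diet 3 of the 7 genes were past the threshold, Inmt, Gamt and Hnmt, a share near the 38.3% of all genes tested that were past it in either direction. All 3 were lower, as were 19.1% of all genes tested, and none of the 7 was higher, against 19.2% of all genes tested. The median log2 fold change of the 7 was -0.45, against -0.10 for all genes tested. With TMM factors Gamt was also below every control library in every MCD library, which was so for 4.88% of all genes tested.

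**Figure D1:**
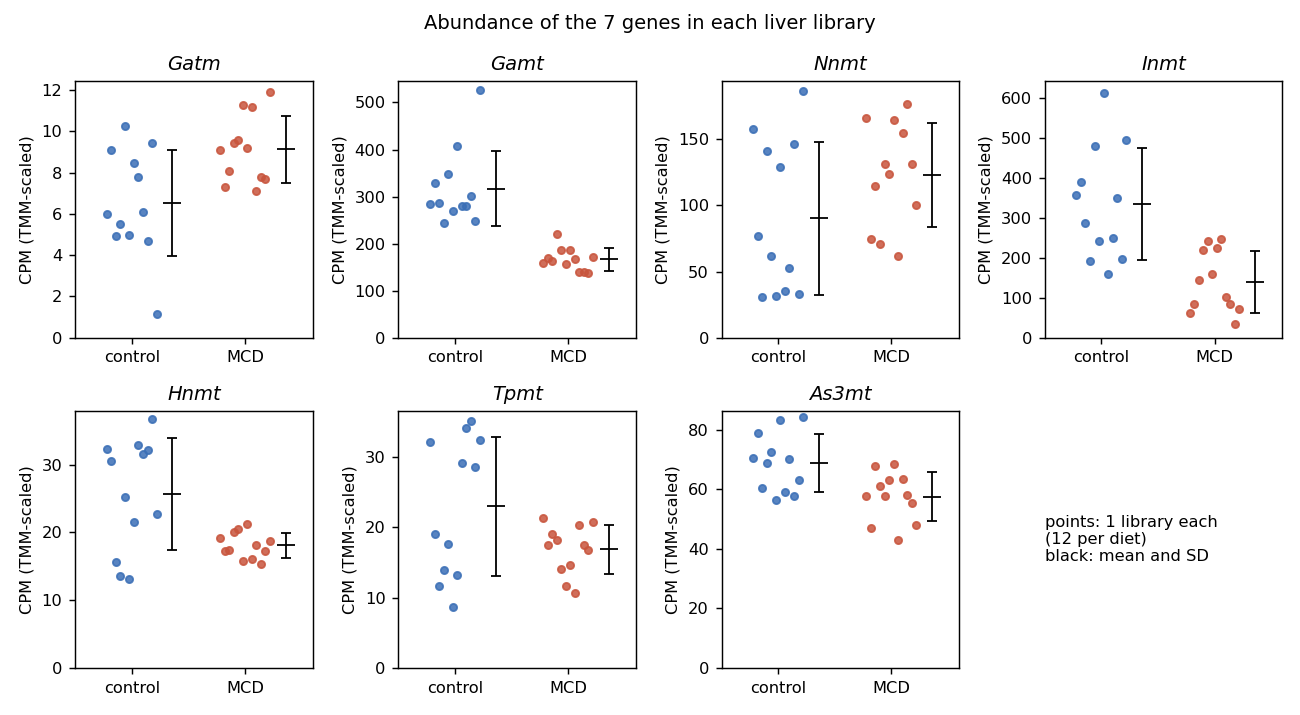
CPM (TMM-scaled, y axis from 0) of each of the 7 genes in 12 control and 12 MCD libraries, with the mean and SD in black. Gamt is the gene whose groups do not overlap on this scale, Gatm has 1 control library far below the rest at 1.14 CPM, and the control libraries of Nnmt, Hnmt and Tpmt spread more widely than the MCD libraries.

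In the creatine route the second enzyme fell and the first did not pass the test. Gamt (ENSMUSG00000020150, chr10:80258151-80261012, minus strand) ranged from 245 to 526 CPM with a median of 285 in control libraries and from 138 to 220.0 with a median of 166 in MCD libraries. All 12 MCD libraries were thus below the lowest control library on the TMM scale, and the mean in MCD was 0.525 times that in control. The log2 fold change was -0.93 (SE 0.11, 95% CI -1.16 to -0.70, edgeR FDR = 6.89e-08). Under the other scalings, filters and tools it stayed between -0.91 and -0.54, the latter under total counts alone. On that scale the groups overlapped through MCD replicate 4, whose log2 CPM of 7.94 was above the lowest control library at 7.81.

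Gatm (ENSMUSG00000027199, chr2:122594467-122611303, minus strand) was measured at a far lower level. Its control libraries ranged from 1.14 to 10.3 CPM with a median of 6.04, and its MCD libraries from 7.11 to 11.9 with a median of 9.15. All 12 MCD libraries were above the control median and 3 were above every control library. The lowest control value came from replicate 12, with 15 counts, and the next lowest was 4.68 CPM with 72 counts. The log2 fold change was 0.48 (SE 0.20, 95% CI 0.07 to 0.88, edgeR FDR = 0.0361), which did not pass the threshold. Without control replicate 12 it was 0.41 with an edgeR FDR of 0.00967, below the fold limit. With upper-quartile factors it was 0.62 (edgeR FDR = 0.00995) and with total counts alone 0.81 (edgeR FDR = 0.00278), both past the threshold as higher.

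The ratio of Gamt to Gatm within a library does not depend on the scaling of that library, apart from the prior count. Its log2 value was 5.70 ± 1.02 (SD, n = 12) in control and 4.18 ± 0.243 (SD, n = 12) in MCD. Control libraries ran from 4.70 to 8.74 and MCD libraries from 3.79 to 4.53, so all 12 MCD libraries were below every control library. The mean difference was -1.52 (SE 0.303, two-sided permutation test with 100000 resamples, p = 1e-05, the smallest the resamples can give, adjusted p = 2e-05 over 4 ratios). The value of 8.74 was control replicate 12, the next highest was 5.97, and without that library the difference was -1.25.

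**Figure D2:**
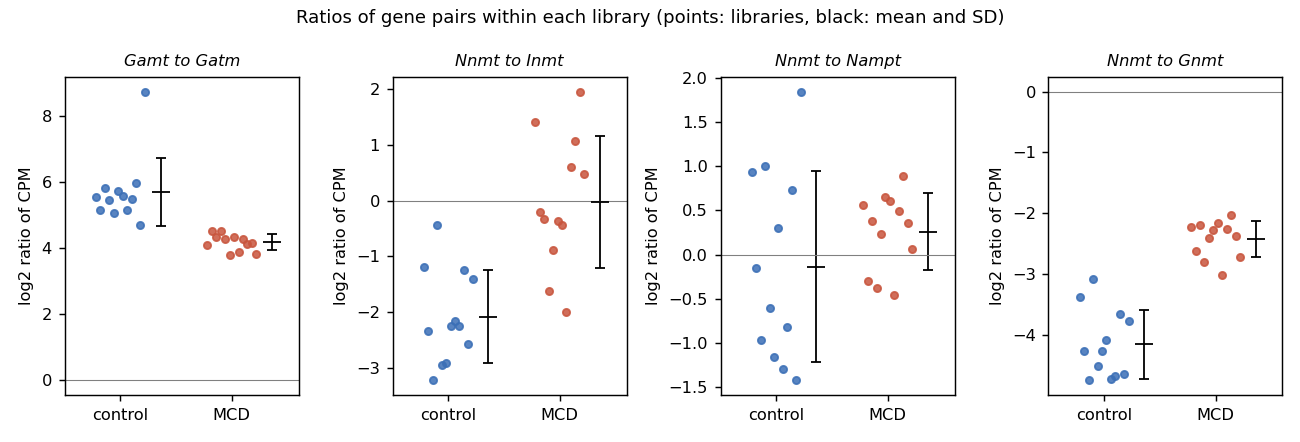
log2 ratio of the CPM of 4 gene pairs within each library (y axis, log2 units, not starting at 0), for 12 control and 12 MCD libraries, with the mean and SD in black. The groups do not overlap for Gamt to Gatm, where MCD is lower, or for Nnmt to Gnmt, where MCD is higher, and they overlap fully for Nnmt to Nampt.

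Nnmt (ENSMUSG00000032271, chr9:48591877-48605153, minus strand) did not pass the threshold, and its control libraries were the most spread of the set, with a coefficient of variation of 64.0% against 32.1% in MCD. Control values ran from 30.5 to 186 CPM with a median of 69.2, and MCD values from 61.5 to 176 with a median of 128. Of the 12 MCD libraries 11 were above the control median, but none was above the highest control library, replicate 12. The log2 fold change was 0.44 (SE 0.29, 95% CI -0.16 to 1.05, edgeR FDR = 0.19). Without control replicate 12 it was 0.62 (edgeR FDR = 0.0588), and without MCD replicate 4 as well 0.71 (edgeR FDR = 0.0333). It passed the threshold as higher with total counts alone, at 0.87 (edgeR FDR = 0.00604).

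Inmt (ENSMUSG00000003477, chr6:55170626-55175043, minus strand) had the largest fold change of the 7 genes. Its control libraries held 159 to 614 CPM with a median of 318 and its MCD libraries 33.8 to 247 with a median of 123. All 12 MCD libraries were below the control median and 7 were below every control library, so the groups overlapped. The log2 fold change was -1.26 (SE 0.29, 95% CI -1.85 to -0.67, edgeR FDR = 4.29e-04), and the mean in MCD was 0.418 times that in control. Its spread relative to the mean was wider in MCD than in control, with coefficients of variation of 55.1% and 41.9%.

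The log2 ratio of Nnmt to Inmt was -2.08 ± 0.841 (SD, n = 12) in control and -0.026 ± 1.19 (SD, n = 12) in MCD. In control every library held less Nnmt than Inmt, and in MCD 5 of 12 libraries held more. The MCD values separated by the sex-linked expression score that is set out with the slopes: the 6 libraries with a negative score, these 5 among them, lay at -0.197 to 1.955 and the 6 with a positive score at -2.003 to -0.335. The difference was 2.06 (SE 0.42, two-sided permutation test with 100000 resamples, p = 0.00017, adjusted p = 0.000227 over 4 ratios), and 9 of 12 MCD libraries were above every control library. Nnmt was also set against Gnmt, the glycine N-methyltransferase that takes up excess SAM in hepatocytes. That ratio rose from -4.16 ± 0.565 (SD, n = 12) to -2.43 ± 0.302 (SD, n = 12) on the log2 scale, with all 12 MCD libraries above every control library. The difference was 1.73 (SE 0.185, two-sided permutation test with 100000 resamples, p = 1e-05, adjusted p = 2e-05). Against Nampt, which salvages the nicotinamide that Nnmt methylates, the difference was 0.39 (SE 0.335, two-sided permutation test with 100000 resamples, p = 0.252).

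Hnmt (ENSMUSG00000026986, chr2:24002910-24049394, minus strand) passed the threshold narrowly. Control values ran from 13.1 to 36.7 CPM with a median of 27.9, and MCD values from 15.3 to 21.2 with a median of 17.8. All 12 MCD libraries were below the control median, yet none was below the lowest control library. The log2 fold change was -0.50 (SE 0.14, 95% CI -0.80 to -0.21, edgeR FDR = 0.00371). It stood just beyond the fold limit, and it was short of the threshold under each other scaling (total counts alone -0.14, upper-quartile factors -0.35, relative log expression factors -0.44) and without any 1 of 17 of the 24 libraries, control replicate 12 among them (-0.48, edgeR FDR = 0.00528). The coefficient of variation of Hnmt was 32.2% in control and 10.5% in MCD.

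Tpmt (ENSMUSG00000021376, chr13:47022482-47044737, minus strand) and As3mt (ENSMUSG00000003559, chr19:46707458-46741099, plus strand) were lower in mean on MCD without passing the threshold. Tpmt ranged from 8.67 to 35.1 CPM with a median of 23.8 in control and from 10.6 to 21.3 with a median of 17.5 in MCD. All 12 MCD libraries were below the control median and none was below the lowest control library. Its log2 fold change was -0.45 (SE 0.20, 95% CI -0.85 to -0.04, edgeR FDR = 0.0537), and it was -0.29 with upper-quartile factors and -0.06 with total counts alone (edgeR FDR = 0.204 and 0.79). An exon of Tpmt shares 641 bases with the processed pseudogene Gm18807 on the opposite strand, at a mean of 1.38 CPM in control and 1.06 in MCD, and whether the counting used strand is not stated.

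As3mt had the lowest coefficient of variation of the 7 genes in control, 14.1%, and a like value in MCD, 14.2%, where Hnmt and, by a small margin, Gamt were lower. Its control libraries held 56.6 to 84.2 CPM with a median of 69.6 and its MCD libraries 42.9 to 68.7 with a median of 57.9. All 12 MCD libraries were below the control median and 4 were below every control library. The log2 fold change was -0.26 (SE 0.09, 95% CI -0.43 to -0.08, edgeR FDR = 0.0111), short of both limits, and with total counts alone its sign changed to 0.11 (edgeR FDR = 0.232).

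**Figure D3:**
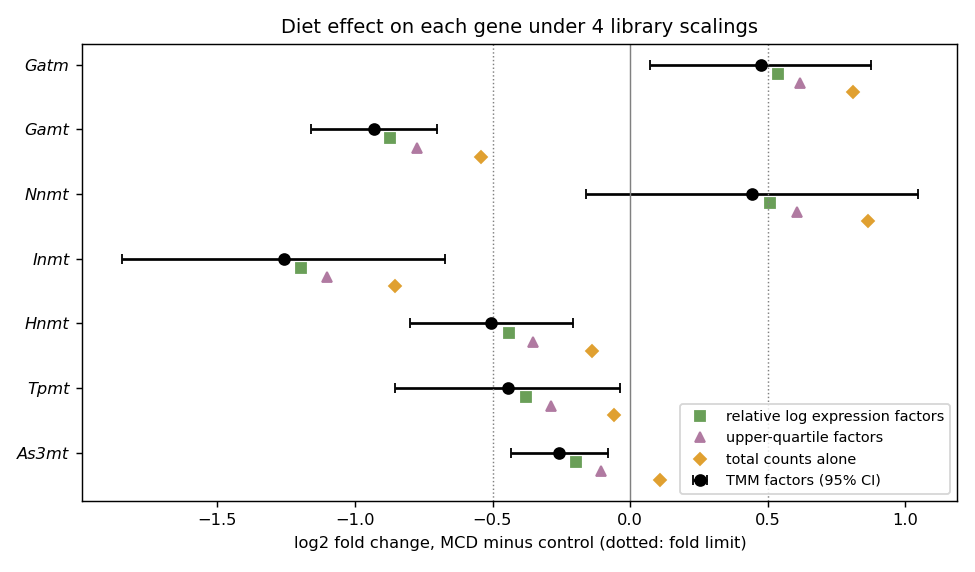
log2 fold change, MCD minus control (x axis), of the 7 genes with TMM factors (black, 95% confidence interval) and under 3 other library scalings, with dotted lines at the fold limit of 0.5. Gamt and Inmt lie below -0.5 under all 4 scalings, Hnmt only with TMM factors, and As3mt changes side under total counts alone.

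Per kilobase of the longest annotated transcript, the order of the 7 levels was the same in both diets: Gamt, Inmt, Nnmt, As3mt, Hnmt, Tpmt and Gatm. In control the means ran from 321 ± 81.0 CPM per kb for Gamt and 310.5 ± 130.2 for Inmt, through 86.5 ± 55.4 for Nnmt, 39.7 ± 5.60 for As3mt, 15.5 ± 4.99 for Hnmt and 8.47 ± 3.64 for Tpmt, to 2.73 ± 1.08 for Gatm (SD, n = 12). Neighbours in that order overlapped in range except As3mt and Hnmt. In MCD Gamt held 168 ± 23.8 CPM per kb, Inmt 129.7 ± 71.5 and Nnmt 117.5 ± 37.7 (SD, n = 12), and Inmt overlapped in range with both of its neighbours. The gaps from Nnmt to As3mt, from As3mt to Hnmt and from Hnmt to Tpmt held without overlap in MCD, while Tpmt and Gatm overlapped.

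Since the libraries of a diet come from animals of both sexes without a label for each, a sex-linked expression score was used as a number. It takes the level of Xist less the average of 4 Y-linked genes (Uty, Kdm5d, Eif2s3y and Ddx3y), in log2 CPM. The score ran from -8.07 to 12.5 in control and from -7.24 to 11.1 in MCD, with a gap between negative and positive values. Slopes are given as the log2 change from the lowest to the highest score of all libraries. Over both diets the slope of Tpmt was past the threshold at -0.91 (SE 0.147, edgeR FDR = 0.000146), which held for 2.93% of all genes tested in either direction, and the slopes of the other 6 genes were not. In the fit with a slope for each diet, the slope in control libraries was past the threshold for Tpmt at -1.29 (edgeR FDR = 6.07e-06) and for Hnmt at -0.72 (edgeR FDR = 0.00737), as it was for 4.66% of all genes tested. The slope in MCD libraries was past the threshold for Inmt, at 1.79 (edgeR FDR = 0.00286), as it was for 1.01% of all genes tested, and in control it was 0.33 (edgeR FDR = 0.477).

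The difference between the slopes of both diets was not past the threshold for any of the 7 genes, against 0.411% of all genes tested. It was 1.45 for Inmt (SE 0.457, edgeR FDR = 0.133), 0.84 for Tpmt (SE 0.245, edgeR FDR = 0.0924) and 0.80 for Hnmt (SE 0.26, edgeR FDR = 0.153), so a different diet effect along the score was not shown for them. In the same fit the diet effect at the lowest score was past the threshold for Inmt at -2.17 (edgeR FDR = 3.93e-06), Hnmt at -0.87 (edgeR FDR = 0.000192) and Tpmt at -0.76 (edgeR FDR = 0.000374). At the highest score it was not past it for these genes, at -0.72 (edgeR FDR = 0.0539), -0.07 (edgeR FDR = 0.765) and 0.08 (edgeR FDR = 0.705). For Gamt the diet effect was past the threshold at both ends, at -1.08 (edgeR FDR = 9.1e-06) and -0.80 (edgeR FDR = 0.000349), where 36.1% and 29.9% of all genes tested were past it.

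**Figure D4:**
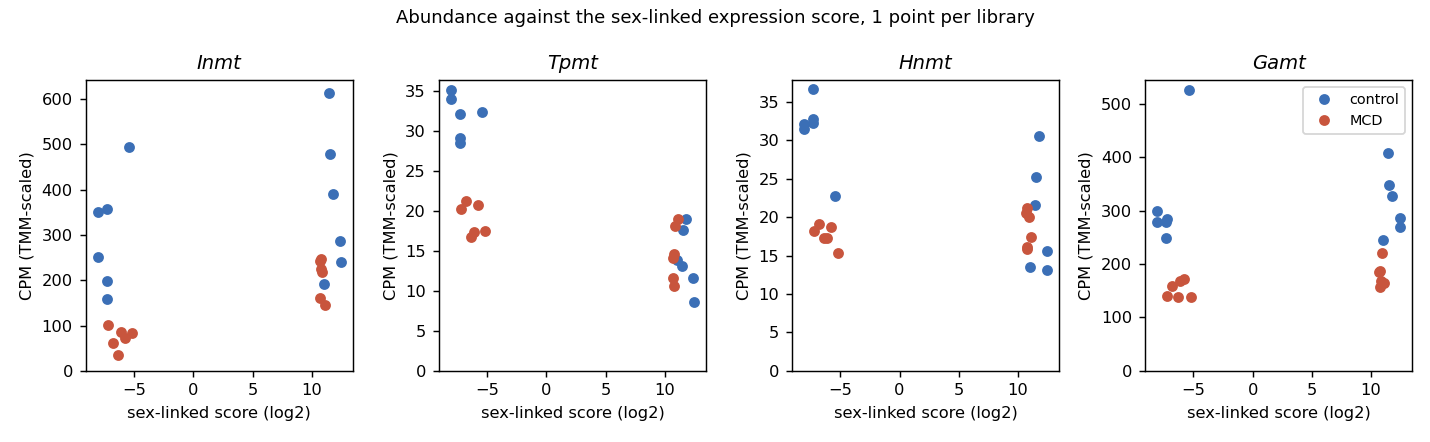
CPM (TMM-scaled, y axis from 0) of Inmt, Tpmt, Hnmt and Gamt against the sex-linked score (x axis, log2 units), 1 point per library, control in blue and MCD in red. Tpmt in control falls with the score (slope -1.29), Inmt in MCD rises with it (slope 1.79), and Gamt in MCD stays below control along the score.

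Genes of the linked routes were taken from lists by function. Beside the counts of each list below, 19.1% of all genes tested were past the threshold as lower and 19.2% as higher. Their median log2 fold change was -0.10, and most lists hold few tested genes. Of 7 genes listed under SAM supply and SAH removal, 3 were past the threshold as lower and 1 as higher, with a median log2 fold change of -0.38. Ahcy-like genes were counted in this list by name, and a part of theirs in SAH removal was not tested. Adk, which clears the adenosine left from SAH, fell from 677 ± 121 to 360.3 ± 35.6 CPM (SD, n = 12 each; log2 fold change -0.91, edgeR FDR = 3.84e-09). Ahcyl2, an Ahcy-like gene, changed by -0.73 and Ahcy, which cleaves SAH, by -0.59 on the log2 scale. Ahcy was short of the fold limit without both libraries that stand apart (-0.48) and with upper-quartile factors (-0.43). Mat2a, the SAM synthetase of non-hepatocyte and growing cells, was the 1 gene past the threshold as higher, at 0.56 (edgeR FDR = 2.08e-07).

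Of 10 other small-molecule methyltransferases 8 were tested, and 4 were past the threshold as lower and 0 as higher, with a median of -0.44. Gnmt fell from 1412 ± 586 to 634 ± 111 CPM (SD, n = 12 each; log2 fold change -1.15, edgeR FDR = 4.96e-06). Coq5 of ubiquinone synthesis was lower by a log2 fold change of -0.72 and Carnmt1, which methylates carnosine, of -0.71. Those not tested were Pnmt, at 0 counts in all libraries, and Asmt, at 2 counts or fewer.

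Of 6 genes of creatine transport and kinases 3 were tested and 2 were past the threshold as higher, with every MCD library above every control library, which was so for 9.5% of all genes tested. Slc6a8, the creatine transporter, held 6.79 to 19.9 CPM in control and 34.5 to 53.9 in MCD (log2 fold change 1.77, edgeR FDR = 1.45e-10). Ckb, the brain-type creatine kinase, held 4.78 to 15.8 CPM in control and 32.0 to 68.3 in MCD (log2 fold change 2.14, edgeR FDR = 5.98e-11). Both thus moved opposite to Gamt. The third tested gene, Slc16a12, a creatine transporter named after its values were seen, held 41.9 to 97.0 CPM in control and 40.6 to 81.0 in MCD and was not past the threshold (log2 fold change -0.43, edgeR FDR = 0.00586). Most macrophage, mesenchymal and cholangiocyte markers also rose, in the ranges given above, and their part in the change of Slc6a8 and Ckb was not tested.

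Around Nnmt, 19 of 21 nicotinamide and NAD genes were tested, and 9 were past the threshold as lower and 1 as higher, with a median of -0.50. The lower genes with the largest change were Haao (-1.32) and Afmid (-1.30), both of the kynurenine route from tryptophan to NAD. Bst1, an ectoenzyme of NAD breakdown, was higher by a log2 fold change of 2.62, from 0 to 7 counts per control library to 11 to 60 per MCD library. Nampt held 51.8 to 104.8 CPM in control and 78.8 to 113 in MCD, with a log2 fold change of 0.26 (edgeR FDR = 0.0198) that was not past the threshold.

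Around Hnmt, 4 of 7 genes of histamine synthesis, breakdown and receptors were tested, and 2 were past the threshold as lower and 1 as higher. Maob, which oxidises the methylated histamine, fell from 203 ± 30.8 to 106 ± 21.1 CPM (SD, n = 12 each; log2 fold change -0.94, edgeR FDR = 2.58e-08), and Slc22a3, an organic cation transporter, changed by -0.87. Aoc1, the diamine oxidase of the other histamine route, went from 0 to 3 counts per control library to 16 to 61 per MCD library (edgeR FDR = 3.84e-11), and its control level is at or under the floor of 3 counts. The receptor genes Hrh1, Hrh2 and Hrh4 did not pass the low-count filter, and none of 5 mast cell markers did, with at most 20 counts summed over them in a library. Around Tpmt and As3mt, 4 of 5 genes of thiopurine and arsenic handling were tested, and Pnp, purine nucleoside phosphorylase, was past the threshold as higher (0.55, edgeR FDR = 1.35e-05). With total counts alone 5 of the genes named as lower in these lists (Ahcy, Ahcyl2, Coq5, Carnmt1 and Slc22a3) were short of the threshold, at -0.51 to -0.21, and Nampt was past it as higher at 0.61.

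**Figure D5:**
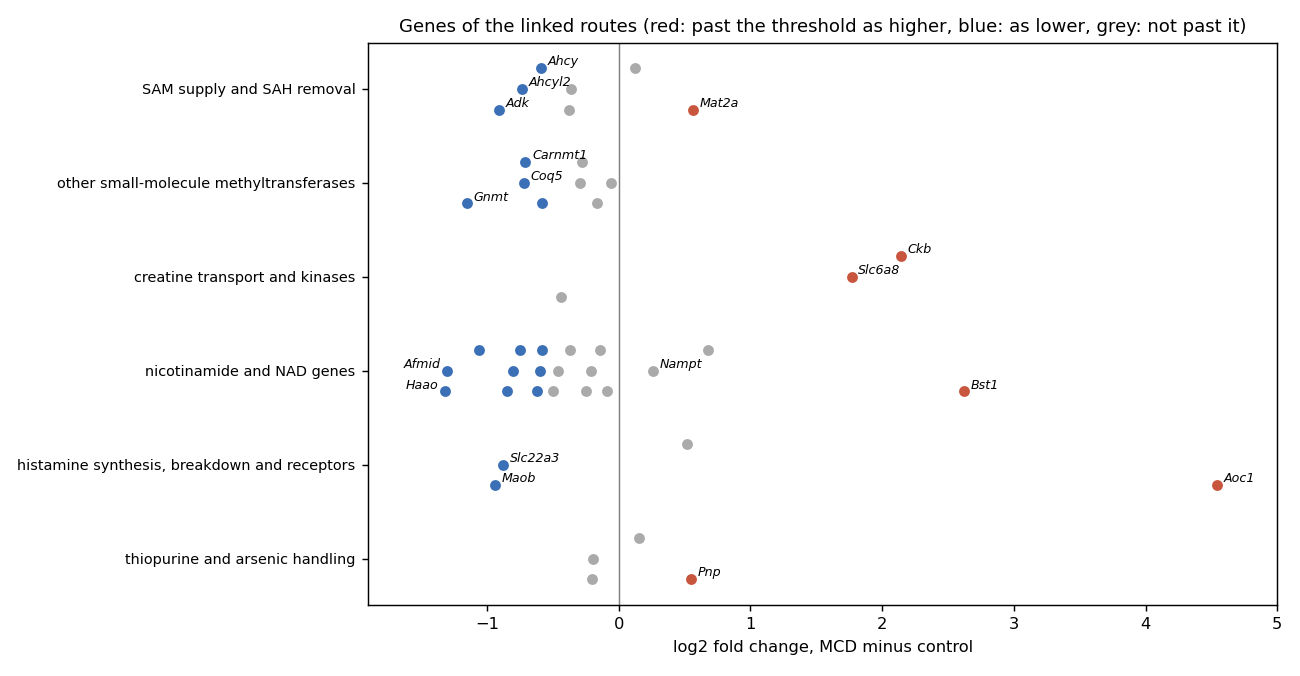
log2 fold change, MCD minus control (x axis), of the tested genes of 6 lists (rows, with vertical offsets for legibility), red where past the threshold as higher, blue as lower and grey where not past it, with the genes named in the text, other than Slc16a12, labelled. Most called genes of SAM supply, the other methyltransferases and NAD lie left of 0, while Ckb and Slc6a8 lie near 2.

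Within diets, the genes also differed in which other genes varied with them over the 24 libraries. The measure was Pearson's r of log2 CPM after subtracting each diet's mean, given as a description. Differences between libraries of a diet in depth, scaling and the sex-linked score remain in it, and their part was not tested. Hnmt and Tpmt were the most alike pair of the 7 (r = 0.768), followed by Gamt and Inmt (r = 0.676) and Nnmt and As3mt (r = 0.573). Gamt and Gatm had r = -0.36, and Gatm was negatively related or near 0 to each of the others but Hnmt (r = 0.26).

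Over all genes tested, the highest r for Nnmt was with Etnk2 (0.874), Gnmt (0.874) and Hgd (0.858). Nnmt thus varied within a diet much as Gnmt did, while in MCD Gnmt was past the threshold as lower and Nnmt was not past it. Hgd was past it as lower and Etnk2 was not past it. Inmt was nearest to Ces1c (0.855), Cyp2c37 (0.83) and Cyp2c29 (0.826), and all 3 were past the threshold as lower in MCD. Hnmt was nearest to Ugp2 (0.933), Dnase2b (0.918) and Mfsd8 (0.899), also all past it as lower, as were 19.1% of all genes tested. The genes nearest to each of the other members had mixed calls.

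Tpmt was nearest to Lap3 (0.944), past the threshold as lower, and to C8a (0.928) and Abcg2 (0.925), which were not past it. For Gatm the nearest were Lipo3 (0.914), past the threshold as higher, and Tiparp (0.908) and Adam10 (0.9), not past it. For Gamt they were Spp2 (0.857), past it as lower, and Kxd1 (0.856) and Limd2 (0.851), not past it. These values for Gatm and Gamt include control replicate 12, in which Gatm was lowest and Gamt highest. As3mt had no gene above 0.74, its value with Slc25a3, which was not past the threshold. F2 (0.728) and Gm36172 (0.719) followed, both past it as lower.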

How the data were processed

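The authors deposited a table of raw counts, 1 row for each Ensembl gene and 1 column for each library, with no normalization. The submitters' processing notes name bcl2fastq, STAR 2.7.3a and the genome build mm10, and the study's supplement names the exon quantification pipeline and PISCES beside STAR, but for reads aligned to the human genome. The counting program of the mouse libraries and its strand setting are not given in the sources used here. Of the 56205 rows 28652 were 0 in every library, and 0 sample columns were unused. Symbols (51745 rows), positions, lengths and exon overlaps came from GENCODE mouse release M21 (GRCm38). Counts were filtered with filterByExpr, TMM-scaled and tested with edgeR 4.0.16 in R 4.3.3 over all 24 libraries without covariates. Log2 CPM used a prior count of 2. Ratios were tested with numpy 2.4.6, and figures drawn with matplotlib 3.10.9. Intervals at 95% come from the fitted SE, and the 3-count floor covers counting error only.

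The 7 genes, the lists and the tests were chosen with earlier results of these data known. From each list the text names up to 3 genes past the threshold with the largest absolute log2 fold change and the ratio denominators. Mat2a and Slc16a12, the latter not past the threshold, were named after their values were seen. Genes that were not tested are named where the text says so. 1 gene of a list is not reported here. For each of the 7 genes the 3 tested genes of highest r are named. On simulated counts of 14109 genes for the diet comparison, 200 genes were changed, as many up as down. There edgeR recovered 86 of 100 genes changed by 1 and 97 of 100 changed by 2 on the log2 scale and called 0 unchanged genes. In the data 38.3% of genes tested were called, so the simulation does not test the scaling at that share. For an interaction, over 14025 genes, libraries were given 0 and 1 in turn in place of the score, and it recovered 28 and 83 of 100. Recovery with the values of the score itself was not tested. Alternatives were other scalings and filters, DESeq2 1.42.0, limma-voom (limma 3.58.1), a replicate block, the score as covariate, other limits, a prior count of 0.5 for the ratios, each library left out in turn, and, added after seeing the data, both libraries that stand apart left out and the interaction with the score.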

Additional observations from a re-analysis of the deposited data

How the results depend on the processing

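Gamt and Inmt were past the threshold as lower under every scaling, filter and tool tried and without each library in turn (log2 fold change -0.96 to -0.81 and -1.33 to -1.12), with the exception of Gamt under a log2 limit of 1 (-0.93). Hnmt was short of the threshold with total counts alone (-0.14), upper-quartile factors (-0.35), relative log expression factors (-0.44), DESeq2 (-0.44), limma-voom (-0.43), 10 or more counts required of every library (-0.42), no filter (-0.46), the score as covariate (-0.47), both libraries that stand apart left out (-0.48) and a log2 limit of 1 (-0.50), and without single libraries ran from -0.57 to -0.43. Gatm became past it with upper-quartile factors (0.62), total counts alone (0.81) and with the FDR limit at 0.05 and any fold (0.48), Nnmt with total counts alone (0.87) and As3mt under the same limit (-0.26), while with total counts alone As3mt changed sign (0.11). The cause of these changes was not tested beyond the limits and scalings themselves.

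Of the 7 genes 1 was past the threshold as higher with upper-quartile factors, 2 with total counts alone and 1 with the FDR limit at 0.05 and any fold, and 1 as lower with a log2 limit of 1, 4 with the FDR limit at 0.05 and any fold, and 2, Gamt and Inmt, under each other scaling, filter, tool, block and covariate tried. Of all 14109 genes tested, 2712 were higher in the main fit, 3261 with upper-quartile factors, 4539 with total counts alone and 3742 with the FDR limit at 0.05 and any fold. With 10 or more counts required of every library 1801 of 11717 were higher. As lower there were 2688 in the main fit, 1710 with upper-quartile factors, 848 with total counts alone, 5221 with the FDR limit at 0.05 and any fold and 686 with a log2 limit of 1. The other scaling, the filters, tools, block and covariate gave 1885 to 2707 lower. The share of higher among called genes was 50.2% with TMM factors, 65.6% with upper-quartile factors and 84.3% with total counts alone. The 4 ratios kept their side of the test under all 4 alternatives each and without each library. Of 190 values of 16 other genes named from the lists (not Mat2a or Slc16a12) under the alternatives, 173 kept their call, 15 lost it, 2 gained it and 0 changed sign.

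The check of equal replicate numbers in both diets was not met by every pair, so the numbers were not taken as a pairing: 8 of 12 pairs had a correlation of deviations above 0.1 (range -0.28 to 0.349), and 2 libraries correlated best with their own number. The median correlation was 0.233 for pairs that share a number and -0.0592 for other pairs, a hint from the data, not from the design. Replicate numbers also went with the sign of the sex-linked score, which was negative in control replicates 1 and 8 to 12 and in MCD replicates 1, 2 and 9 to 12. The part of the score in these correlations was not tested. With the replicate block in the edgeR fit Hnmt was at -0.44 (edgeR FDR = 0.0193), short of the threshold.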
